A study of Saccharomyces cerevisiae with 24 samples.

Results

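The peak lists of the smallest and the largest amount of colony, 4 mg and 500 mg, were compared across the 16 nuclear chromosomes of budding yeast. By their labels 3 FAIRE lists came from 4 mg and 3 from 500 mg, 6 of the 12 peak lists and 24 samples of the study. The question was which genes and which classes of sequence gained, lost or shifted peaks when little material was used, and the study's title places it in an adaptation of FAIRE to low cell numbers.

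FAIRE separates DNA by how much protein holds it. Formaldehyde cross-links chromatin, sonication shears it, and fragments with little protein on them stay in the aqueous phase when phenol and chloroform are added. Sequence free of nucleosomes, such as active promoters and transcribed tRNA genes, is therefore enriched over an input of unfixed DNA.

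Both groups were BY4742, a haploid laboratory strain with deletions at HIS3, LEU2, LYS2 and URA3. Giant colonies, 6 on a plate, grew at 28 °C for 3 days on a yeast extract medium with 3% glycerol, 1% ethanol, 0.05% glucose and a pH dye, and cells were lifted off with a spatula. All groups shared this genotype, medium and age, and differed by the biomass in the label. The labels call the replicates biological, and give no source beyond the colony. Of the deleted genes, LEU2, URA3 and LYS2 had no peak over the coding sequence in any of the 6 lists, and HIS3, deleted in part, was covered over 38.8% to 70.9% of it.

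The lists of 4 mg held 5076, 4500 and 4919 nuclear peaks (replicates 1 to 3), and those of 500 mg held 4927, 4996 and 5163. The means were 4832 ± 298 and 5029 ± 121 (SD, n = 3 lists each), and the ranges overlapped (exact permutation test, two-sided, p = 0.4). With 3 lists against 3 the smallest p this test can give is 0.1. Median peak width was 336.5, 258 and 306 bp at 4 mg and 301, 320 and 304 bp at 500 mg (exact permutation test, p = 0.9). The depth of a FAIRE and input pair, recovered indirectly from the deposited fold enrichment and −log10 p, was 0.25 reads per bp in 4 mg replicate 1 and in each list of 500 mg. It was 0.239 and 0.238 in 4 mg replicates 2 and 3. Peaks with a −log10 q of 5 or more made up 88.4%, 86.3% and 97.3% of the lists of 4 mg and 98.7%, 99.4% and 98.9% of those of 500 mg.

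Less sequence lay under peaks at 4 mg in each of its lists than in any list of 500 mg. The covered length was 2310.0, 1916 and 2470.1 kb at 4 mg and 2482, 2622 and 2530.4 kb at 500 mg. The difference of the means, 2232 ± 285 against 2545 ± 71.1 kb, was −313 kb (4 mg minus 500 mg), and its p was the smallest this design allows (exact permutation test, p = 0.1). When each list was cut to its strongest peaks up to the same summed length, peaks were more numerous at 4 mg by 797 on average, with overlapping lists (exact permutation test, p = 0.3). On 12 of the 16 chromosomes every list of 4 mg covered a smaller percentage than every list of 500 mg. The exceptions were chromosomes VIII, XI, XII and XIII, where 4 mg replicate 1 or 3 reached into the range of 500 mg.

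The lists of 500 mg resembled each other more closely than those of 4 mg did. The Jaccard index, the length shared by both lists of a pair over the length held by either, was 0.881 to 0.899 within 500 mg and 0.603 to 0.719 within 4 mg. Between the biomasses it was 0.653 to 0.845. List 3 of 4 mg had indices of 0.836 to 0.845 with the lists of 500 mg, higher than the 0.719 and 0.708 with the other lists of 4 mg. The mean index between biomasses minus the mean within was −0.0465 (exact permutation over 10 splits, one-sided, p = 0.1, the smallest possible). Without any 1 list of 500 mg this sign turned, with values of 0.00184 to 0.00933. Peaks in all 3 lists covered 1551 kb at 4 mg, 54.6% of what at least 1 of those lists covered. At 500 mg they covered 2321 kb, or 83.8%. Of the sequence common to the lists of 4 mg 97.0% was also common to those of 500 mg, whereas 64.8% of the sequence common at 500 mg was common at 4 mg.

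**Figure D1:**
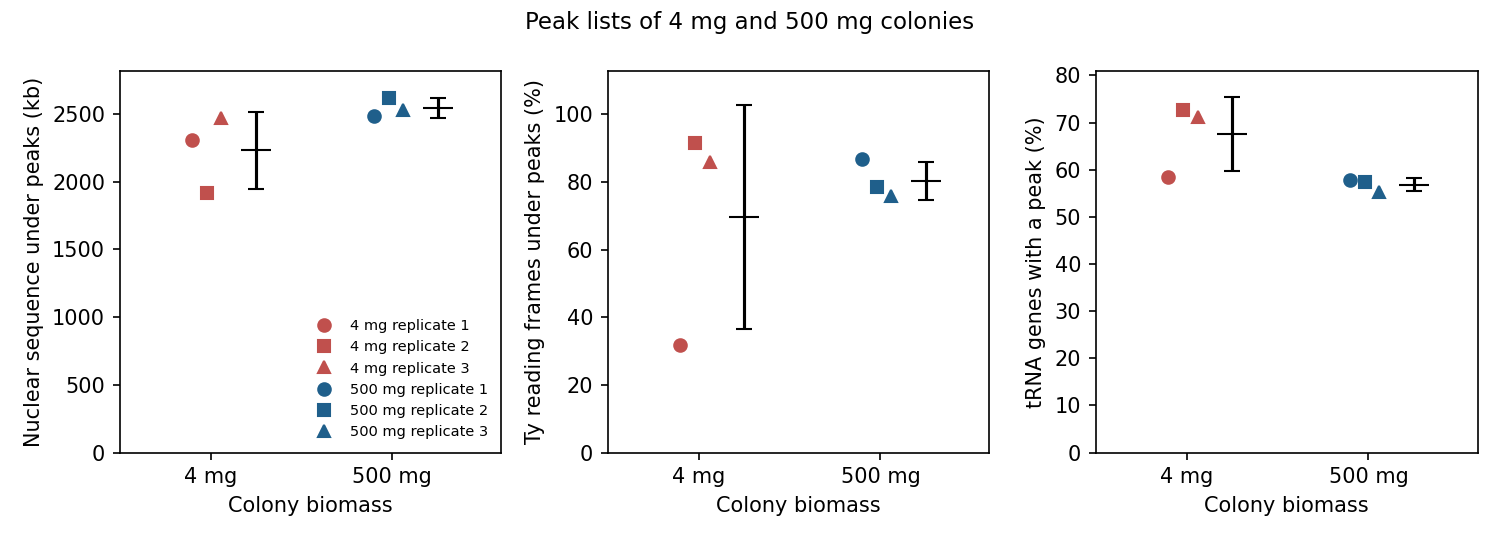
Nuclear sequence under peaks in kb, percent of Ty reading frames under peaks and percent of tRNA genes with a peak (vertical axes from 0) in each list of 4 mg (red) and 500 mg (blue). Marker shape gives the replicate and the bar the mean with its SD; 4 mg replicate 1 lies at 31.7% of the Ty sequence while the other lists of either biomass lie between 76.0% and 91.6%.

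1 library stood apart at repeated sequence. Ty elements are retrotransposons present in many near-identical copies, to which reads cannot be assigned with certainty, and the authors' handling of them is not stated in the sources used here. Peaks covered 31.7% of the Ty reading frames in 4 mg replicate 1, 91.6% in replicate 2 and 85.9% in replicate 3. At 500 mg they covered 86.7%, 78.5% and 76.0%. Of 32 Ty elements, 0 were covered by 90% or more in 4 mg replicate 1, 26 and 21 in the other lists of 4 mg and 21, 21 and 19 in those of 500 mg. The YRF1 helicase genes, repeated at chromosome ends, were covered by 77.8% in 4 mg replicate 1 and by 93.3% to 100% in the other 5 lists. In the lists of 20 mg and 100 mg Ty coverage ran from 1.4% to 79.5%. With 4 mg replicate 1 the mean Ty coverage was lower at 4 mg, and without that list the mean was higher by 8.37 points, with overlapping lists (exact permutation test, p = 0.3). None of the promoters or gene bodies called below was a Ty reading frame. Within 20 kb of chromosome ends coverage was 33.0% ± 3.5 at 4 mg and 36.4% ± 1.0 at 500 mg (SD, n = 3; exact permutation test, p = 0.2).

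The sequence classes in which summits fell were compared next. A summit is the highest point of a peak, and each was placed in a noncoding RNA gene, in coding sequence or in the space between genes. In the lists as deposited a larger share of summits lay between genes at 4 mg and a larger share inside coding sequence at 500 mg, with no overlap of the lists. The size of these differences varied with the peaks used. Divergent spaces, which hold the promoters of the genes on both sides, had 9.18%, 10.6% and 9.80% of summits at 4 mg and 8.79%, 8.71% and 8.72% at 500 mg. Tandem spaces, with 1 promoter, had 10.2%, 10.8% and 10.7% at 4 mg and 9.30%, 9.45% and 9.24% at 500 mg. For both classes all lists of 4 mg were above all lists of 500 mg (exact permutation test, p = 0.1; 0.15 with Benjamini-Hochberg adjustment over 6 classes). With equal summed peak length per list the differences shrank from 1.11 to 0.0904 points for divergent and from 1.21 to 0.228 points for tandem spaces (exact permutation test, p = 0.9 for each). Convergent spaces, which lie between gene ends, held 1.18% ± 0.12 and 1.11% ± 0.031 (SD, n = 3; exact permutation test, p = 0.5).

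Inside genes, where the difference lay also depended on the peaks used. The first 300 coding bp held 23.4% ± 0.64 of summits at 4 mg and 23.5% ± 0.046 at 500 mg (SD, n = 3; exact permutation test, p = 1). Deeper coding sequence held 52.9%, 50.2% and 52.2% at 4 mg and 54.4%, 54.3% and 54.4% at 500 mg. All lists of 4 mg were below those of 500 mg (exact permutation test, p = 0.1; 0.15 adjusted). The mean difference there was −4.01 points with peaks of −log10 q 5 or more and −2.40 with the 3000 strongest (exact permutation test, p = 0.1 for each). With equal summed peak length per list the mean difference in deeper coding sequence turned to 0.52 points in favour of 4 mg (exact permutation test, p = 0.7). That in the first 300 coding bp was then −1.17 points, and −1.13 with the 3000 strongest peaks of each list (exact permutation test, p = 0.1 for each). Together the 3 intergenic classes held 21.6% ± 0.88 of summits at 4 mg and 19.2% ± 0.072 at 500 mg, and coding sequence held 75.2% ± 0.82 and 77.9% ± 0.049 (SD, n = 3; exact permutation test, p = 0.1 for each). For scale, divergent spaces make up 8.66% of the nuclear genome, tandem spaces 13.4% and coding sequence past the first 300 bp 58.2%.

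**Figure D2:**
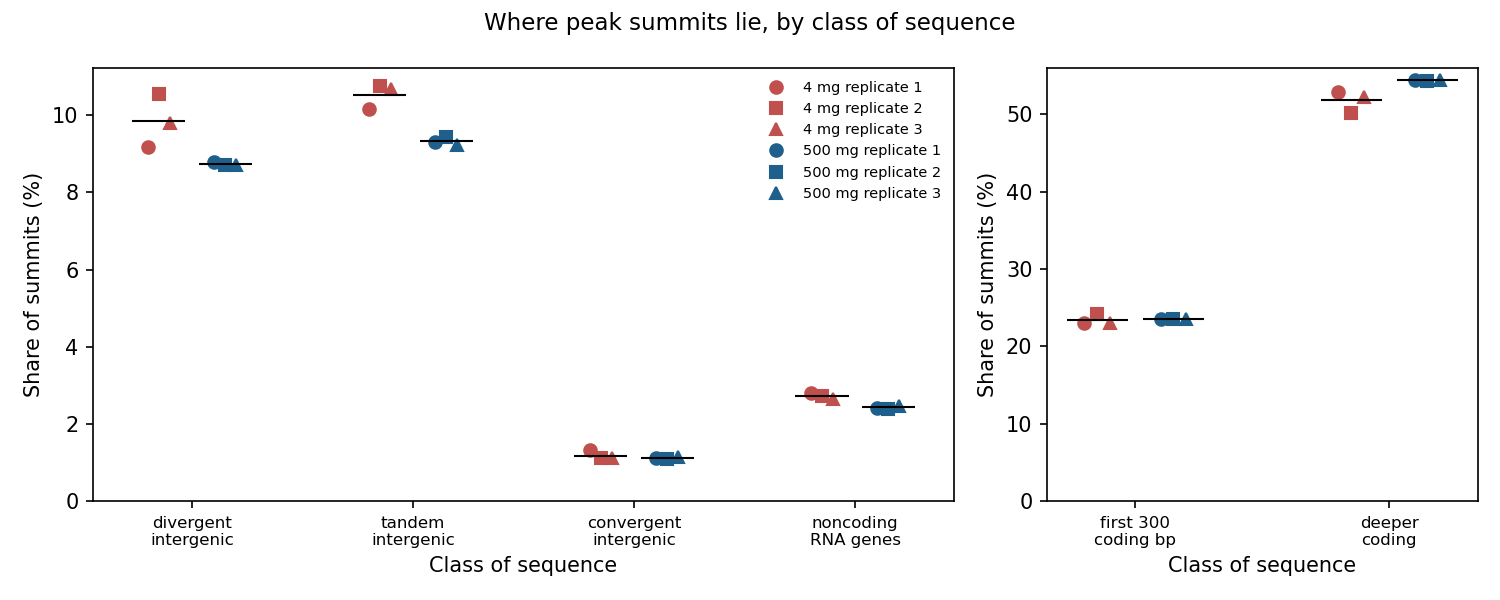
Share of summits (percent, axes from 0) in 6 classes of sequence, for each list of 4 mg (red) and 500 mg (blue), with a line at the mean. In the lists as deposited, divergent, tandem and noncoding RNA classes lie higher at 4 mg in every list, deeper coding sequence lies lower, and the first 300 coding bp overlap.

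Around start codons the profile had the same outline in both groups. Summits were rarest in the 100 bp before the start codon, with 0.96% ± 0.093 at 4 mg and 0.87% ± 0.020 at 500 mg (SD, n = 3). They were most frequent 100 to 200 bp inside the gene, with 9.88% ± 0.26 and 10.0% ± 0.20 (exact permutation test, p = 0.5). The widest gap was 100 to 200 bp upstream of the start codon, with 3.44% ± 0.42 at 4 mg and 2.70% ± 0.13 at 500 mg, and all lists of 4 mg were higher (exact permutation test, p = 0.1). Between 400 and 500 bp inside genes the order was the opposite, with 4.78% ± 0.25 and 5.16% ± 0.13 (exact permutation test, p = 0.1). The gene models used here have no untranslated regions, so the start of transcription lies at an unknown distance from the zero point.

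**Figure D3:**
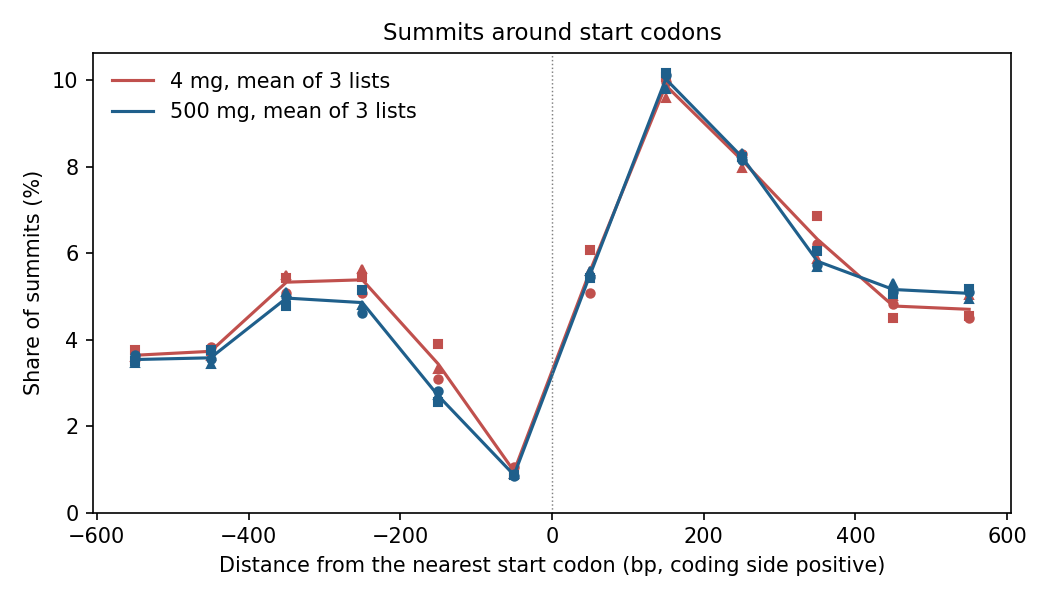
Share of summits (percent, axis from 0) in 100 bp steps of distance from the nearest start codon, with coding sequence on the positive side. Lines join the means of the 3 lists of 4 mg (red) and 500 mg (blue) and points are the lists; the means of 4 mg are higher from 100 to 400 bp upstream and from 300 to 400 bp inside genes, and lower from 400 to 600 bp inside.

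Genes for noncoding RNA held 2.80%, 2.73% and 2.64% of summits at 4 mg and 2.42%, 2.40% and 2.48% at 500 mg (exact permutation test, p = 0.1; 0.15 adjusted). With equal summed peak length the difference fell from 0.292 to 0.00107 points (exact permutation test, p = 1). With peaks of −log10 q 5 or more it was 0.533 points (exact permutation test, p = 0.1). With the 3000 strongest peaks it was 0.211 points (exact permutation test, p = 0.2). Among them tRNA genes, transcribed by RNA polymerase III, were examined one by one after these shares had been seen. Of 275 nuclear tRNA genes a peak lay on 58.5%, 72.7% and 71.3% in the lists of 4 mg and on 57.8%, 57.5% and 55.3% in those of 500 mg. All lists of 4 mg were higher, replicate 1 by little (mean difference 10.7 points, exact permutation test, p = 0.1). The values were 50.2%, 46.2% and 67.3% in the lists of 20 mg and 46.5%, 69.5% and 66.2% in those of 100 mg. Lists of the same biomass thus differed there by more than this mean difference. A peak was found on 131 tRNA genes in all 6 lists and on 58 in none. On 63 tRNA genes more lists of 4 mg than of 500 mg had a peak, and on 17 fewer. Those with a peak in 3 of 3 lists at 4 mg and 0 of 3 at 500 mg numbered 7 (2.55%), and 0 (0%) showed the reverse. The 7 were EMT1 (chromosome IV, 1175829 to 1175901), which encodes a methionine tRNA for elongation, SUP6 (VI, 210619 to 210707), a tyrosine tRNA gene, SUF1 (XV, 110962 to 111033), a glycine tRNA gene, and YNCK0011C, YNCM0010W, YNCO0016W and YNCP0018C. Many tRNA genes have near-identical copies and lie beside Ty elements, so the assignment of reads among them is uncertain. For snoRNA genes, which guide the modification of ribosomal RNA, the order was the opposite. A peak lay on 9.21%, 5.26% and 9.21% of 76 at 4 mg and on 10.5%, 11.8% and 10.5% at 500 mg (exact permutation test, p = 0.1). Between the closest lists, at 9.21% and 10.5%, the gap was the weight of a single gene among the 76.

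Which promoters gained or lost coverage was asked for the 500 bp upstream of each start codon. The percent of a window under peaks was compared with limma over 2722 windows that had a mean of at least 5% and were not the same in all lists, with Benjamini-Hochberg adjustment and a threshold of 0.05. Of these, 24 promoters (0.882%) were more covered at 4 mg and 22 (0.808%) at 500 mg. In 15 of the 24 and in 15 of the 22 every list of the other biomass had 0%. Such windows had no spread in that biomass and passed the 5% filter only through the other one. The limma values printed for them below describe the windows and are not independent support. The median difference over all windows tested was −5.23 points (4 mg minus 500 mg), and at an unadjusted p under 0.05 the counts were 72 and 302. The lists did not overlap in 87 windows (3.20%) with 4 mg above and in 706 (25.9%) with 500 mg above. Either order is 1 of the 20 possible assignments of 3 lists against 3. The called promoters lay in 21 and 19 separate places, since neighbouring genes can share a window, and the median size of their differences was 36.1 and 32.8 points. With equal summed peak length the counts were 37 and 7. With the replicate number as a block in limma they were 0 and 0. A change of 1 list moved them too: without 4 mg replicates 1, 2 or 3 in turn 38, 81 and 56 promoters were more covered at 4 mg, without 500 mg replicates 1, 2 or 3 the counts were 7, 8 and 10, and without 4 mg replicate 3 the count for 500 mg was 138.

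CAT8 and COX5A were the members of the carbon and respiration lists that were called at 4 mg. CAT8 encodes the zinc cluster activator of gluconeogenic genes on nonfermentable carbon. Its promoter (XIII, 831330 to 831829) was covered by 37.6%, 37.2% and 34.0% at 4 mg and by 0% in all lists of 500 mg (difference 36.3 points, SE 2.89, limma adjusted p = 0.00333). COX5A encodes a subunit of cytochrome c oxidase. Its promoter (XIV, 531225 to 531724) was covered by 100%, 79.6% and 90.2% at 4 mg and by 44.6%, 42.4% and 45.2% at 500 mg (difference 45.9 points, SE 5.59, limma adjusted p = 0.0181). A summit lay 436 to 459 bp upstream of COX5A in all 6 lists, so a peak was present throughout and the covered part was longer at 4 mg.

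IMA1 and MAL33 encode an isomaltase and a MAL activator, both near chromosome ends. Peaks covered 45.6%, 43.2% and 42.0% of the IMA1 promoter (VII, 1068992 to 1069491) at 4 mg and 0% in each list of 500 mg (difference 43.6 points, SE 2.91, limma adjusted p = 0.00333). The MAL33 promoter (II, 800023 to 800522) had 41.4%, 38.0% and 44.6% at 4 mg and 0% in each list of 500 mg (difference 41.3 points, SE 3.18, limma adjusted p = 0.00333). Its divergent neighbour TYC1 shares most of that window and had a difference of 41.1 points. Both genes belong to families with similar copies, which makes their reads uncertain.

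The promoter of TPM1, the gene of the main tropomyosin that stabilises actin cables (XIV, 479166 to 479665), was covered by 49.4%, 30.0% and 49.6% at 4 mg and 0% at 500 mg (difference 43.0 points, SE 6.01, limma adjusted p = 0.0290). YET2, which encodes an endoplasmic reticulum membrane protein (XIII, 349881 to 350380), had 44.4%, 38.2% and 39.6% against 0% (difference 40.7 points, SE 3.16, limma adjusted p = 0.00333). FIR1, a gene linked to mRNA 3′ end processing (V, 214563 to 215062), had a wider gap, with 87.6%, 42.8% and 61.8% against 0%. The spread between its lists left it outside the threshold (difference 64.1 points, SE 11.02, limma adjusted p = 0.0655). The other called promoters included FAS2, the alpha subunit of fatty acid synthase, with a difference of 35.8 points, SEC31, a coat protein of vesicles leaving the endoplasmic reticulum, with 39.7, and ECM22, a regulator of sterol genes, with 36.1.

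Among promoters called at 500 mg the widest gap lay in the divergent space of YOR268C, an uncharacterised gene, and PAC1, which encodes a dynein regulator needed for nuclear migration. The PAC1 promoter (XV, 825885 to 826384) was covered by 44.2%, 37.4% and 52.2% at 4 mg and by 100% in each list of 500 mg (difference −55.4 points, SE 4.48, limma adjusted p = 0.00335). For YOR268C the difference was −59.0 points (SE 4.47, limma adjusted p = 0.00333). SAC1 and DOA1, also a divergent pair, encode a phosphoinositide phosphatase and a protein of ubiquitin recycling. The SAC1 promoter (XI, 34043 to 34542) had 10.8%, 0% and 15.8% at 4 mg and 59.0%, 56.6% and 57.0% at 500 mg (difference −48.7 points, SE 4.79, limma adjusted p = 0.00722). DOA1 (window XI, 34108 to 34607) had a difference of −43.6 points (SE 2.95, limma adjusted p = 0.00333).

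The promoter of FMT1, which encodes the formyltransferase of mitochondrial initiator tRNA (II, 201556 to 202055), had no coverage at 4 mg and 47.2%, 52.0% and 42.8% at 500 mg (difference −47.3 points, SE 3.54, limma adjusted p = 0.00333). KEL2, a kelch repeat protein of the cell cortex, TVP38, a Golgi membrane protein, and OMS1, a protein of the inner mitochondrial membrane, likewise had 0% in each list of 4 mg. Their means at 500 mg were 41.9%, 41.8% and 41.7% in that order (limma adjusted p = 0.00333 for each). The lists of storage carbohydrate and of ribosome biogenesis genes had 1 called promoter each. UGP1, which makes UDP-glucose for glycogen and trehalose (XI, 369391 to 369890), was covered by 77.8%, 69.0% and 74.4% at 4 mg and 100% at 500 mg (difference −26.3 points, SE 3.71, limma adjusted p = 0.0300). UTP9, a component of the complex that processes the small ribosomal subunit RNA (VIII, 491431 to 491930), had 0% at 4 mg and 17.2%, 18.2% and 20.6% at 500 mg (difference −18.7 points, SE 2.74, limma adjusted p = 0.0334).

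**Figure D4:**
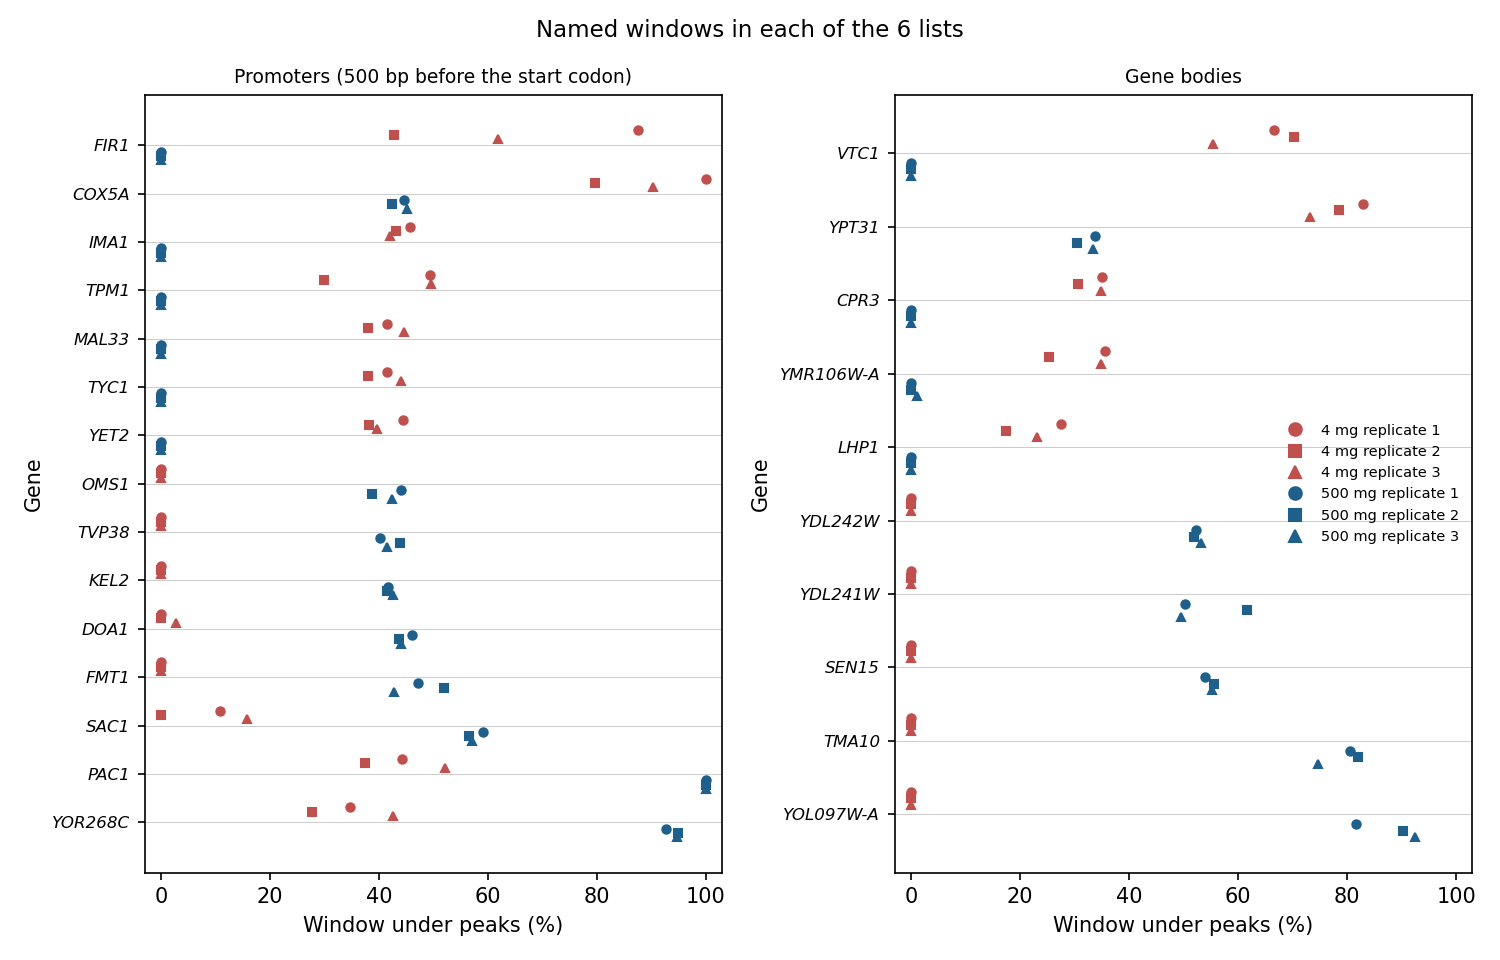
Percent of the window under peaks (horizontal axis, 0 to 100) for the named promoters (left) and gene bodies (right), with the lists of 4 mg in red and those of 500 mg in blue and marker shape for the replicate. Genes are ordered by the difference of the means, and the groups do not overlap for any gene shown.

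Gene bodies, from start to stop codon, were compared in the same way over 3192 genes. At 4 mg 12 bodies (0.376%) were more covered and at 500 mg 54 (1.69%), with a median difference over all genes tested of −4.43 points. In 10 of the 12 and in 44 of the 54 every list of the other biomass had 0%, so these too passed the filter through 1 biomass only. Their limma values likewise describe them and are not independent support. With each list centred on its own mean coverage the counts of called bodies were 10 and 18, and with equal summed peak length they were 9 and 4, the opposite order. With the replicate number as a block in limma they were 0 and 0. At an unadjusted p under 0.05 the counts were 32 and 358. Without 4 mg replicates 2 or 3 the count for 4 mg was 36 and 22, and without 500 mg replicates 1, 2 or 3 it was 7, 5 and 6. For 500 mg it was 97, 90 and 215 without 4 mg replicates 1, 2 and 3.

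VTC1 led the bodies more covered at 4 mg. It encodes a subunit of the vacuolar complex that makes polyphosphate (V, 302806 to 303195) and was covered by 66.7%, 70.3% and 55.4% at 4 mg and 0% at 500 mg (difference 64.1 points, SE 4.32, limma adjusted p = 0.00171). YPT31, a Rab GTPase gene of the Golgi, had 82.9%, 78.4% and 73.2% against 33.8%, 30.4% and 33.3% (difference 45.7 points, SE 3.85, limma adjusted p = 0.00322). YPT31 starts inside the promoter window of the divergent gene FIR1, and at 500 mg its coverage lay outside that window. CPR3, a mitochondrial cyclophilin gene, had 35.0%, 30.6% and 34.8% against 0% (difference 33.5 points, SE 1.83, limma adjusted p = 0.00106). LHP1, whose product binds the ends of tRNA precursors, and the short reading frame YMR106W-A differed by 22.7 and 31.6 points. HSP78, which encodes a mitochondrial disaggregase, was the member of the chaperone list that passed, with 12.2%, 9.81% and 8.62% against 0% (difference 10.2 points, SE 1.36, limma adjusted p = 0.0227).

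At 500 mg the short genes YOL097W-A and TMA10 led. YOL097W-A (XV, 136220 to 136405) had 81.7%, 90.3% and 92.5% at 500 mg and 0% at 4 mg (difference −88.2 points, SE 3.82, limma adjusted p = 0.000678). TMA10, whose product is found with ribosomes (XII, 783127 to 783387), had 80.5%, 82.0% and 74.7% against 0% (difference −79.1 points, SE 3.04, limma adjusted p = 0.000471). SEN15, a subunit gene of the tRNA splicing endonuclease, had a mean of 55.0% at 500 mg, and YDL241W and YDL242W, uncharacterised genes near the end of chromosome IV, had 53.8% and 52.5%. All 3 had 0% in each list of 4 mg. TRX3, the mitochondrial thioredoxin gene, had 50.8%, 49.2% and 48.2% against 0% (difference −49.4 points, SE 1.79, limma adjusted p = 0.000452).

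2 genes of the large ribosomal subunit passed in the same direction. RPL8B (XII, 47859 to 48629) had 30.6%, 22.2% and 31.8% at 4 mg and 64.5%, 71.3% and 64.2% at 500 mg (difference −38.5 points, SE 4.24, limma adjusted p = 0.0102), and RPL24B had 0% against a mean of 31.8% (limma adjusted p = 0.00106). Both have a near-identical paralog, so their reads may be shared with it. BAT1, a branched-chain aminotransferase gene, and RPN12, a gene of the proteasome lid, had 0% at 4 mg and means of 19.1% and 16.0% at 500 mg (limma adjusted p = 0.00170 and 0.00196).

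Counted by pathway, few members were called in any list, and the shares to read them against are those of all windows tested, 0.882% and 0.808% of promoters and 0.376% and 1.69% of bodies (called at 4 mg and at 500 mg). Among gluconeogenesis and glyoxylate genes 19 promoters were tested, of which CAT8 alone was called, and the median difference was −5.27 points beside −5.23 over all promoters. Among respiratory chain and ATP synthase genes 22 promoters were tested, 1 was called (COX5A), and the median was −7.30 points. Of the ribosomal protein genes 54 promoters of the large and 36 of the small subunit were tested, 0 were called (at 4 mg and at 500 mg), and the medians were −6.67 and −7.80 points. For bodies, 40 and 27 of these genes were tested and 0 were called at 4 mg, while 2 of the large subunit were called at 500 mg. Glycolytic genes (16 promoters and 17 bodies tested), TCA cycle genes (15 and 15), peroxisome genes (15 and 22) and autophagy genes (12 and 13) had 0 limma calls for either window. The 3 ATO genes, which encode ammonium exporters induced in ageing colonies, were marked in all 6 lists and had a median promoter difference of −5.93 points. No statement particular to any list is drawn from these counts.

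Summits gave a different view of promoters from coverage. A promoter was counted as marked when a summit lay in its window, which was so in all 6 lists for 806 of 6000 promoters and in none for 4059. In 3 of 3 lists at 4 mg and 0 of 3 at 500 mg 33 promoters (0.55%) were marked, and in 0 of 3 and 3 of 3 19 (0.317%) were. Of the 33, limma had called 16 as more covered at 4 mg and 1 as more covered at 500 mg, and of the 19 it had called 12 as more covered at 500 mg. Of the others, FIR1 and YPT31, divergent genes whose promoter windows overlap, had no coverage at 500 mg, NIS1 had a mean of 5.27%, and in all the rest peaks covered the window at both biomasses while the summit lay elsewhere. KGD2, a gene of the 2-oxoglutarate dehydrogenase complex, was marked at 4 mg only, yet covered by 53.8%, 45.4% and 50.6% at 4 mg and by 42.4%, 48.2% and 44.0% at 500 mg. The ribonucleotide reductase genes RNR2 and RNR3 were of the same kind, with means of 62.8% and 52.7% at 4 mg and of 63.4% and 72.6% at 500 mg. QDR2, a drug exporter gene, was marked at 4 mg only but more covered at 500 mg (difference −24.9 points, limma adjusted p = 0.0339). With 1 list fewer to satisfy, the counts were larger: 58, 75 and 76 without 4 mg replicates 1, 2 and 3 and 51 without 500 mg replicate 3 for the first kind, and 36 and 73 without 4 mg replicates 1 and 3 and 40, 30 and 34 without 500 mg replicates 1, 2 and 3 for the second.

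The strength of the peaks over the 6 named promoters of each kind varied widely. Ranked within its own list by the deposited −log10 p, the strongest peak over a promoter marked only at 500 mg stood at percentiles of 3.14 (SAC1 and DOA1) to 41.6 (TVP38) in the lists of 500 mg. Over a promoter marked only at 4 mg it stood at 3.05 (FIR1) to 81.9 (TPM1) in the lists of 4 mg. Among the 3000 strongest peaks of each list SAC1, FMT1, DOA1, KEL2 and OMS1 had no summit in either group. The strongest peak over the window reached a percentile of 41.6 for TVP38 (500 mg replicate 1) and of 57.5 for FIR1 (4 mg replicate 2).

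At the biomasses between, the promoters marked only at 4 mg were often marked. In the lists of 20 mg and 100 mg 48.5% to 87.9% of the 33 were marked, against 26.3% to 57.9% of the 19 and 20.2% to 29.3% of all promoters. These lists played no part in choosing the 33 and the 19. Both sets had, however, been chosen for summits in other lists, where 4059 of all 6000 promoters had none. A higher share than among all promoters can follow from that choice alone, so no conclusion is drawn from it. Promoters marked in as many lists but in other arrangements were not compared. OMS1 was covered by 0% in all 6 lists of 20 mg and 100 mg, and COX5A by 50.4% in 100 mg replicate 1 and 100% in the other 5.

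Base by base, peaks were held by 1 biomass alone over short runs. Runs of at least 100 bp under a peak in 3 of 3 lists at 4 mg and in 0 of 3 at 500 mg numbered 60 and summed to 9.94 kb. The reverse held for 182 runs and 33.4 kb. Of the 60 runs at 4 mg 48.3% lay between genes, 43.3% in coding sequence and 8.33% in noncoding RNA genes. Of the 182 at 500 mg 9.89% lay between genes, 89.6% in coding sequence and 0.549% in noncoding RNA genes. The noncoding RNA runs numbered 5 at 4 mg and 1 at 500 mg. For scale, coding sequence held 75.2% of all summits at 4 mg and 77.9% at 500 mg. The intergenic classes held 21.6% and 19.2%, and noncoding RNA genes 2.72% and 2.43%. Deeper coding sequence alone held 17 and 122 runs, and divergent and tandem spaces together with convergent ones 29 and 18. The peaks that made these runs were weak in both groups, with median percentiles within their lists of 26.7 and 18.3. Without 4 mg replicates 1, 2 and 3 the runs at 4 mg summed to 20.9, 30.5 and 23.4 kb, and without 4 mg replicates 1 and 3 those at 500 mg summed to 52.4 and 109 kb. When all lists had the same summed peak length the sums were 16.7 kb at 4 mg and 7.08 kb at 500 mg, the opposite order.

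**Figure D5:**
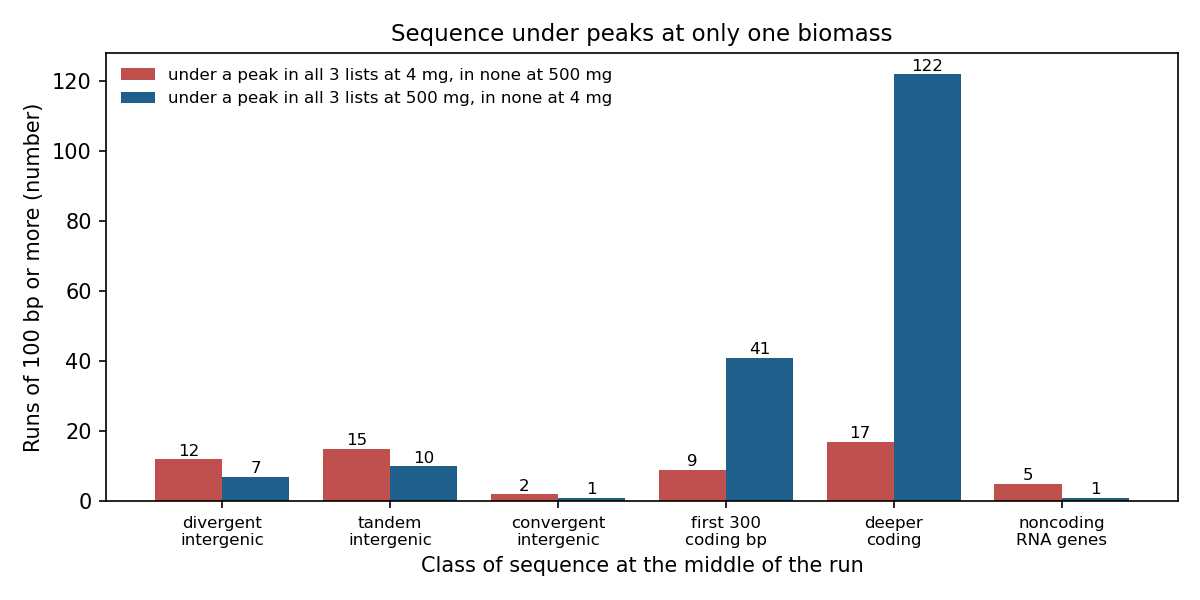
Number of runs of 100 bp or more (vertical axis from 0) under a peak in all 3 lists of one biomass and in none of the other, by the class of sequence at the middle of the run; red bars are runs held at 4 mg and blue bars runs held at 500 mg. Deeper coding sequence has 17 runs at 4 mg and 122 at 500 mg, while divergent spaces have 12 and 7 and tandem spaces 15 and 10.

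The longest run at 4 mg was 316 bp between CMR3, a zinc finger gene, and YPR014C (XVI, 586142 to 586457). It was followed by 281 bp between YOL155W-A and the cell wall gene HPF1 (XV, 27922 to 28202), 275 bp in MPE1, a gene of mRNA cleavage and polyadenylation (XI, 328893 to 329167), 241 bp between YBR085C-A and IST2, which tethers the endoplasmic reticulum to the plasma membrane (II, 419661 to 419901), and 216 bp in VTC1 (V, 302831 to 303046). All but the VTC1 run were covered by at least 89.3% in each list of 20 mg and 100 mg. A cluster lay on chromosome IV in the ENA genes, tandem copies that encode sodium pumps. ENA5, ENA2 and ENA1 together held 5 runs with 932 bp at 4 mg, between positions 530361 and 537739, and 0 at 500 mg. This cluster was singled out after its values were seen, and its copies are near-identical, so reads may be shared among them.

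At 500 mg the longest runs were 268 bp in PHO91, a phosphate transporter gene of the vacuole (XIV, 650644 to 650911), 260 bp in APE3, which encodes a vacuolar aminopeptidase (II, 775499 to 775758), and 252 bp in RPL8B (XII, 48104 to 48355). Then came the 250 bp between YOR268C and PAC1 (XV, 826146 to 826395) and 230 bp in CTK3, a subunit gene of the kinase that phosphorylates the tail of RNA polymerase II (XIII, 45037 to 45266). The run between YOR268C and PAC1 was part of a strong peak, at a mean percentile of 88.8. It was covered by 94.8% in 20 mg replicate 3 and by 0% in the other 5 lists of 20 mg and 100 mg.

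Peaks present everywhere seldom moved. In 2326 regions the peaks matched 1 to 1 in all 6 lists with at least 50% overlap of each, and the median distance between the group means of their summits was 10.7 bp. In 75 regions (3.22%) the 3 summits of 4 mg lay on one side of the 3 summits of 500 mg, with means at least 50 bp apart. They were wider than the rest, with a median width at 500 mg of 622 bp beside 358 bp for all shared regions, and a wide peak leaves more room for its highest point. The summit lay at lower coordinates at 4 mg in 43 and at higher ones in 32, and by 200 bp or more in 19. Both summits lay in coding sequence in 51 regions and both between genes in 13. In 5 regions the summit was intergenic at 4 mg and coding at 500 mg, and in 5 the reverse. Without 4 mg replicates 1, 2 and 3 there were 174, 167 and 156 such regions, and without 500 mg replicates 1, 2 and 3 there were 125, 126 and 121.

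The largest displacement was at WSC4, a sensor gene of the cell wall on chromosome VIII. The matched peaks had summits at 48361, 48397 and 48398 at 4 mg, in the space between it and OCA5. At 500 mg their summits lay at 48994, 49262 and 48897, inside WSC4 (mean −666 bp). The matched peaks were 1745, 1540 and 1804 bp wide at 4 mg and 1057, 1206 and 1081 bp at 500 mg. The WSC4 promoter window (48263 to 48762) also held a summit in 3 of 3 lists at 500 mg, from another peak, so no summit was lost there. In the flocculin gene FLO10 on chromosome XI the summits lay at 647426, 647457 and 647367 at 4 mg and at 647991, 648090 and 648024 at 500 mg (−618 bp). FLO10 holds internal repeats and resembles other flocculin genes. At CLN3, a G1 cyclin gene, and CYC3 on chromosome I the means differed by −404 bp, with 4 mg replicate 2 (68962) close to the lowest summit of 500 mg (68991). The difference was also −404 bp in the purine synthesis gene ADE57 too, where 500 mg replicate 2 (56670) stood close to the summits of 4 mg (56599, 56632 and 56601).

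Toward higher coordinates the largest displacement was 508 bp between ACA1, a gene of a transcription factor for nonfermentable carbon use, and SPO73 on chromosome V. There the summits lay at 242617, 242562 and 242567 at 4 mg and at 242059, 242087 and 242075 at 500 mg. Between TIS11, which encodes an mRNA-binding protein of iron limitation, and RKM5 the summit lay in the shared space at 500 mg and 422 bp away, inside RKM5, at 4 mg (XII; 417460, 417432 and 417382 at 4 mg, 417009, 417061 and 416938 at 500 mg). At the overlapping genes YJL028W and YJL027C on chromosome X the difference was 374 bp. In PAC11, a dynein subunit gene on chromosome IV, the mean of 352 bp rested on 4 mg replicate 1, and without that list it was 100.7 bp.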

How the data were processed

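FAIRE and input DNA were sequenced in pairs, and each of the 12 deposited peak lists came from 1 pair, with no pooling, per the labels. Per the submitters' processing notes the authors used FastQC 0.11.5, Bowtie2 2.2.8, SAMtools 1.4, bedtools 2.26.0 and MACS2 2.1.1.20160309 with build R64 (sacCer3). Their settings, and how reads with several matches were treated, were not stated in the sources used here. The deposited start, end and summit positions, in bp, were made 1-based. The deposited fold enrichment (a ratio) and the deposited −log10 p and −log10 q were the authors' own values per peak. They were used only within a list, to rank or filter peaks and, as fold and −log10 p together under a Poisson model, to recover the depth. The deposited score was not used. Read totals were not analysed here.

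Gene positions were those of RefSeq's R64 table, with strands from systematic names (6002 nuclear protein-coding genes, 6000 with a full 500 bp window). Coverage of windows in the lists of 4 mg and 500 mg was fitted with limma 3.58.1 (eBayes with trend), after a filter of 5% mean coverage. Single values were compared by exact permutation tests. P-values of the exact tests measure the spread between 3 lists a group. Those of limma, and its SE, also draw on the spread of other windows of similar mean coverage. The limma step was tested on simulated data with normal noise and changes planted in windows of intermediate mean coverage. That simulation was not built to include windows without coverage in a whole biomass, so it says nothing about such calls. Named genes were, per direction, the 6 separately marked promoters and 5 called promoters and bodies with the largest differences, the 5 longest runs, the 4 largest summit displacements, and up to 4 members per gene list that were called or separately marked. The comparison, the 26 gene lists and the rules were chosen with earlier results of these data known, and the measures of Ty, YRF1, tRNA and snoRNA genes, of chromosome ends and of distance to start codons after values were seen. The alternatives were stricter peak sets, other windows and overlaps, other scales and leaving out each list. Python 3.11.15, numpy 2.4.6, pandas 2.3.3, scipy 1.17.1 and matplotlib 3.10.9 were used.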

Additional observations from a re-analysis of the deposited data

How the results depend on the processing

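In the exact tests and counts below, values are 4 mg minus 500 mg where they are differences. Same-numbered lists had correlations of −0.185, −0.0500 and −0.0407 between their deviations from the group means, and differently numbered lists −0.129 to 0.162. With 3 lists a group these values constrain each other, so they cannot decide whether the replicate numbers paired the lists. With the replicate number as a block limma made 0 calls for promoters and bodies in either direction, and 0 of the 33 named called windows kept their call. Peaks of −log10 q 5 or more gave a median width difference of 3.67 bp, 5.64 kb of runs at 4 mg and 4 bodies called at 4 mg. The 3000 strongest peaks gave 12 promoters marked only at 500 mg, 20.7 kb of runs at 500 mg, 13 promoters called at 500 mg, and 4 and 25 bodies called at 4 mg and 500 mg. Equal summed peak length, which fixes the covered length (difference 0.024 kb), gave 797 more peaks at 4 mg, 0.525 points for deeper coding sequence, 0.0904, 0.228 and 0.00107 points for divergent, tandem and noncoding RNA summits, 7 promoters marked only at 500 mg, runs of 16.7 and 7.08 kb, 37 and 7 promoter calls, and 9 and 4 bodies called at 4 mg and 500 mg. Shares of covered bases in place of summits turned convergent spaces to −0.0305 and the first 300 coding bp to 0.408 points. A 250 bp window gave 17 and 5 separately marked promoters and 13 calls at 500 mg, a 1000 bp window 41 marked only at 500 mg and 45 calls there, and marking by any overlap 52. A shortest run of 200 bp left 2.36 and 8.85 kb. Reciprocal overlap of 25% and 75% gave 125 and 48 displaced summits. Centring each list left 18 bodies called at 500 mg.

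Leaving out each list in turn gave ranges of −26.3 to 12.9 bp for median width, −0.485 to 0.0959 points for the first 300 coding bp, −0.133 to 0.00933 for the Jaccard difference, −0.25 to 3.0 bp for the difference in summit distance, which was 1.1 bp with all lists, and −21.6 to 8.37 points for Ty frames, a measure added after seeing the data. Separately marked promoters ranged from 38 to 76 at 4 mg and 28 to 73 at 500 mg, runs from 10.8 to 30.5 kb and 39.4 to 109 kb, and displaced summits from 121 to 174. Limma calls ranged from 7 to 81 (4 mg) and 15 to 138 (500 mg) for promoters and from 5 to 36 and 45 to 215 for bodies. Of 33 named called windows 24 to 32 kept their call without 1 list, 29 of 33 after centring and 6 of the 12 still tested with the 3000 strongest peaks. With equal summed peak length 7 of the 14 still tested kept it. Of the promoters still tested 11 of 14 kept it with a 250 bp window and 11 of 16 with a 1000 bp window. None changed direction. The cause of these shifts was not tested. With 3 lists a group the exact tests cannot pass 0.05.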
